A study of Mus musculus with 17 samples.

Results

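The 10 genes described here are Umod, Slc12a1, Kcnj1, Cldn10, Cldn16, Slc12a3, Wnk1, Pvalb, Trpm6 and Egf. They were listed as genes of the thick ascending limb of the loop of Henle and the distal convoluted tubule of the mouse kidney. They were taken by name, with earlier results of these data known, out of 21911 protein-coding genes in the annotation, and all 10 were found in it. Open chromatin was mapped by ATAC-seq, in which a transposase cuts and tags accessible DNA for sequencing, in kidney cells of 17 male mice. The Ctrl group (n = 5) held wild-type (WT) C57BL/6 mice, and the Case group (n = 6) held untreated diabetic db/db mice of the strain BKS.Cg-Dock7m +/+ Leprdb/J. The mice of the Dapa group (n = 6) were db/db and received dapagliflozin, which blocks the sodium-glucose transporter SGLT2, at 1 mg/kg/day by gavage for 6 weeks from the age of 8 weeks, while Ctrl and Case mice received saline. Genotype, diabetes and background strain differed together between Ctrl and both db/db groups, and cannot be told apart. The labels give no batch, and mice are named here by group and number (Ctrl 1 to 5, Case 1 to 6, Dapa 7 to 12).

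The thick ascending limb takes up sodium, potassium and chloride from the tubular fluid through the cotransporter NKCC2, recycles potassium through the channel ROMK, and lets calcium and magnesium pass between its cells through claudins. The distal convoluted tubule that follows takes up sodium and chloride through the cotransporter NCC, which the WNK kinases regulate, and takes up magnesium through the channel TRPM6. Both segments drain the proximal tubule, where dapagliflozin acts, and both are a minor share of kidney cells beside it.

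Each library was a list of summits, the positions where the accessibility signal of a peak was highest, each with a score. Lists held 29702 to 56659 summits, so only the 29702 summits with the highest scores were used from every list, as many as the shortest one held. These are called equal-length lists, and the lists as deposited complete lists. Sequencing depth is unknown. The rank percentile gives the place of a summit within its own list, with 100 for the highest score and 0 written where a gene or region had no summit. A gene window ran from 10 kb upstream of the gene start to the gene end. Kidney cells were measured in bulk, so fewer cells of a type and less accessibility per cell cannot be told apart. Nor do the values show in which cells a site was open, also at the 10 genes. This matters for Cldn10, which has a proximal tubule form, and for Wnk1, whose summits lay at its outer start. Of 10 proximal tubule marker genes, 6 had a summit in all 17 libraries, with a median density of 5.29 summits per library per 100 kb. That density was 0.85 for the 10 thick limb and distal convoluted tubule genes, 1.87 for 32 other genes of the same segments, 2.01 over all protein-coding genes, 1.65 for 10 collecting duct genes, 3.15 for 10 leukocyte genes and 0.695 for 10 podocyte and endothelial genes.

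Accessible sites were few at most of these genes, and their density differed widely between them. It was 7.88 summits per library per 100 kb for Slc12a3 and 5.06 for Cldn10, above the median of all genes, and from 0 for Cldn16 to 1.77 for Umod over the other 8. Slc12a3, Cldn10 and Wnk1 had a summit in all 17 libraries (3 of 10 genes, against 41.4% of protein-coding genes). Egf had one in 14 libraries, Trpm6 in 13, Umod in 8, Slc12a1 and Kcnj1 in 3 each and Pvalb in 1. Cldn16, the claudin of the thick limb through which magnesium is reabsorbed, had none, and none was found in the complete lists either, where 9.1% of protein-coding genes were without a summit. The median over the 10 genes was 10.5 libraries, against 15 over all genes, although their windows were longer (median 67.3 kb against 27.4 kb). With the complete lists Kcnj1 reached 8 libraries and Pvalb 6, while Slc12a1 reached 4.

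**Figure D1:**
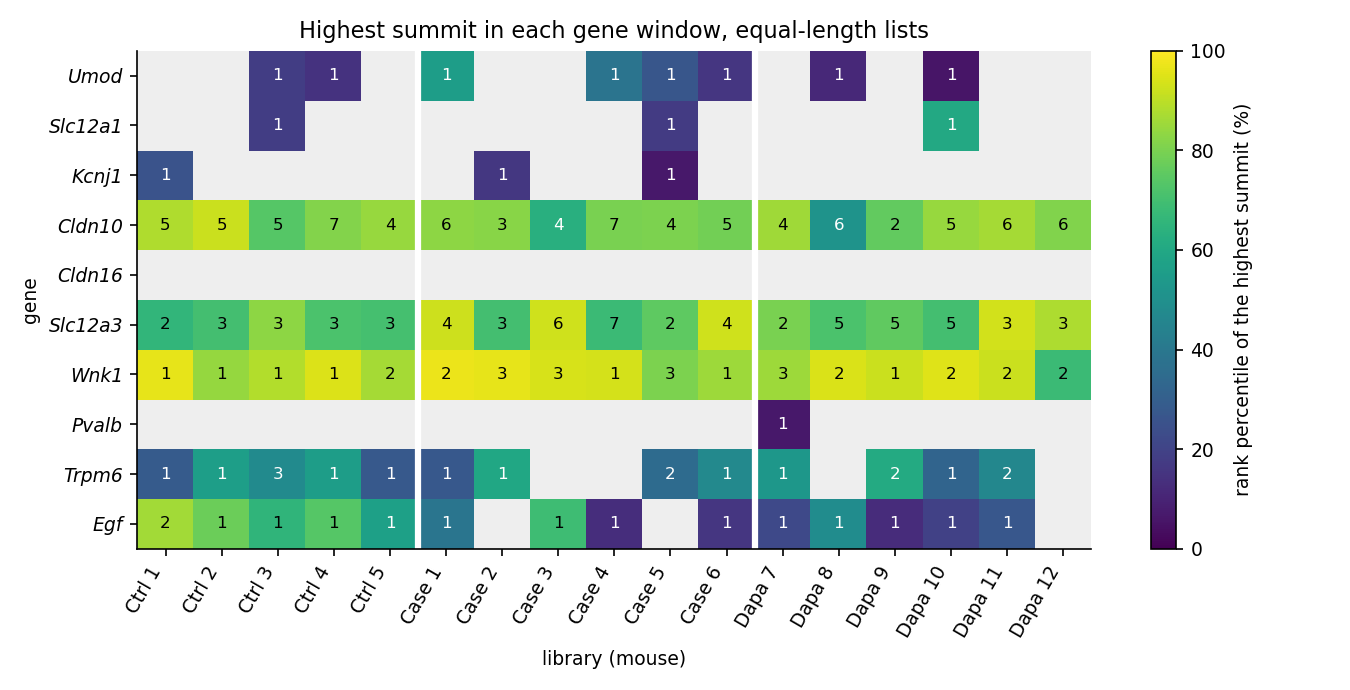
Colour gives the rank percentile of the highest summit in each gene window (rows) in each library (columns), and the number in a cell is the number of summits there. Grey cells had no summit. Slc12a3, Cldn10 and Wnk1 are filled in all 17 libraries, Cldn16 is empty, and Egf is brighter in the 5 Ctrl libraries than in 11 of the 12 db/db libraries.

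Summits of all libraries were widened to 250 bp on either side and merged into regions, and a region in at least 2 libraries is called a consensus region. In the 10 windows this gave 38 regions, of which 26 were found in at least 2 libraries and 3 in all 17. Most lay inside the genes (23 in introns, 4 in coding exons, 3 in untranslated exons and 2 in other exons), and 6 lay upstream. Of the 26 shared regions, 8 lay within 1 kb of a start of the same gene and 18 lay farther away. The annotated starts of the 10 genes form 39 clusters, and 9 of these had a summit within 1 kb in at least 1 library. Slc12a1, Cldn16, Pvalb and Trpm6 had no summit at any of their starts, and of these only Pvalb gained one, in 1 Ctrl mouse, in the complete lists.

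**Figure D2:**
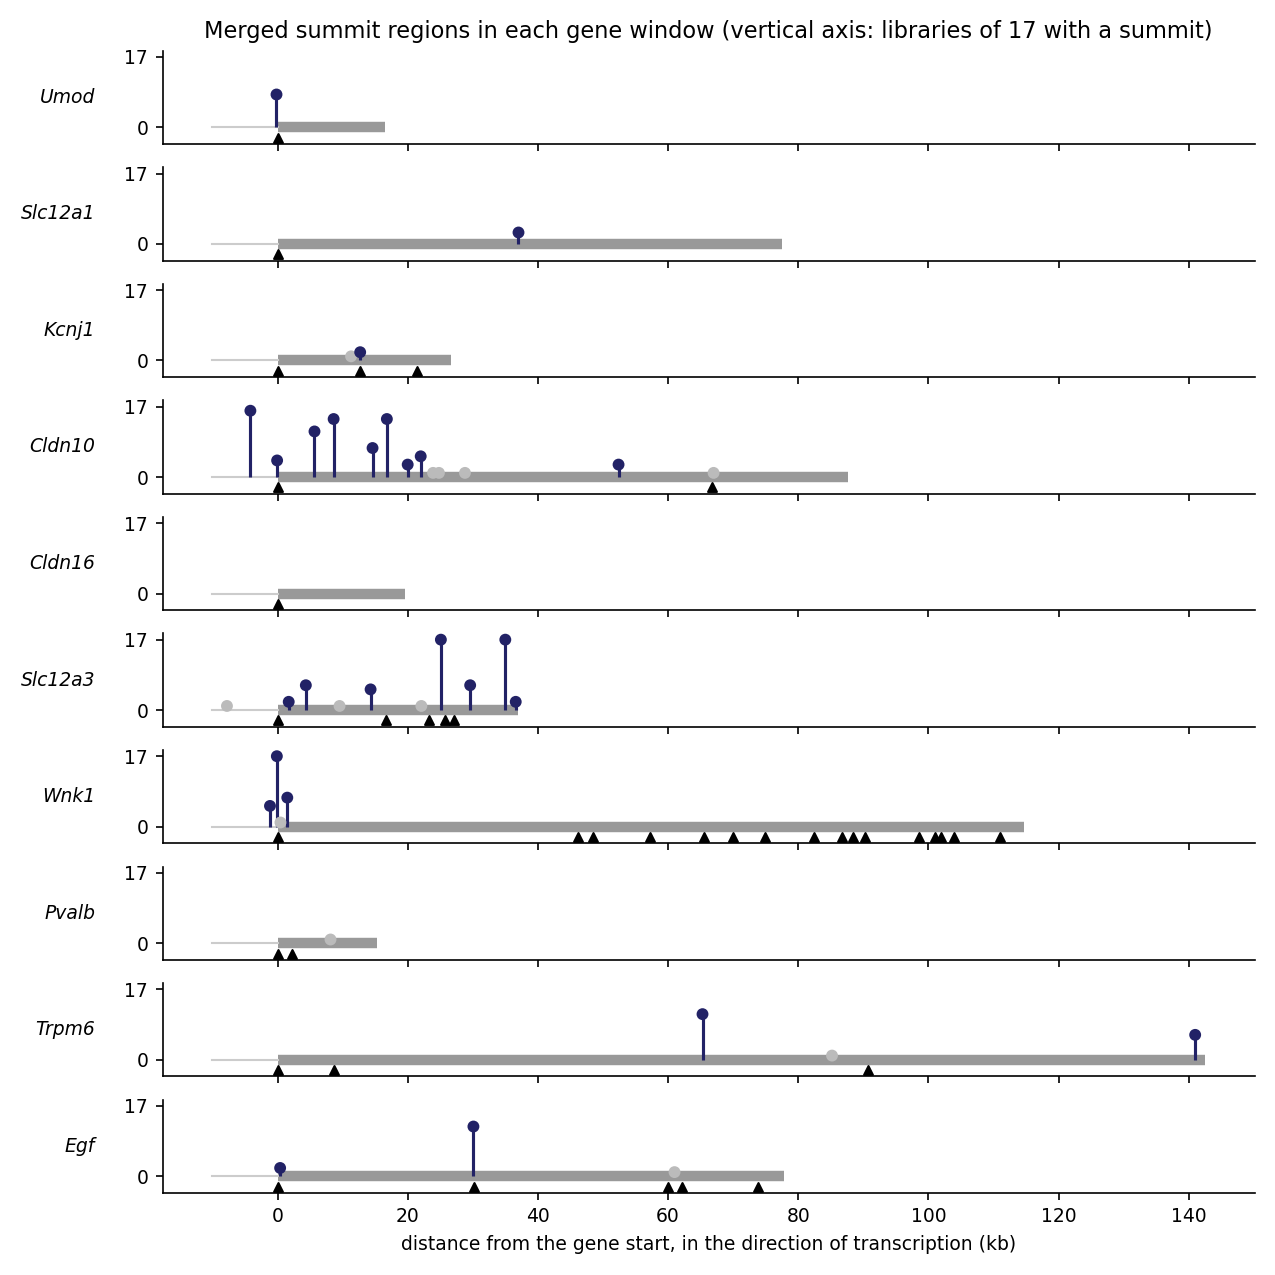
For each gene the grey bar is the gene body, the thin line the 10 kb upstream, and black triangles mark annotated start clusters. Each stem stands at the distance of a merged region from the gene start (kb) and its height is the number of libraries with a summit there, with grey stems for regions found in 1 library. The tallest stems, at 17 libraries, are the Wnk1 start and the regions at 25.1 and 35.0 kb in Slc12a3.

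Among the thick limb genes, Umod encodes uromodulin, the most abundant protein of normal urine. Its only region lay at the gene start (chr7:119479001-119479924, mm10, median summit at -180 bp), and is shown because it is the only start among those of Umod, Slc12a1 and Cldn16 that was accessible. The 300 bases around its median summit (GRCm38.p6, the reference assembly of mm10, chr7:119479313-119479612, minus strand) hold no CpG and none of the motifs searched:
Umod start region: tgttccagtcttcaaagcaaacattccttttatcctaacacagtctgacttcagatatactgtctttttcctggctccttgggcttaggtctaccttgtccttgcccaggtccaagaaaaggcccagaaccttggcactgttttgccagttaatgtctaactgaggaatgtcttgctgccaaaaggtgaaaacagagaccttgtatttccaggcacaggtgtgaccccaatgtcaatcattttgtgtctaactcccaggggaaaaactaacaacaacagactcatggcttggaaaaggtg
A summit was present in 4 of 6 Case mice, and in 2 mice of each other group. The percentile was 18.1 in Ctrl 3 and 14.7 in Ctrl 4. In the Case group it was 55.5 in Case 1, 38.4 in Case 4, 26.8 in Case 5 and 16.0 in Case 6. In the Dapa group it was 11.4 in Dapa 8 and 5.65 in Dapa 10. The 3 highest values were all from Case mice, but the groups overlapped at 0. The mean percentile was 22.8 ± 22 (SD, n = 6) in Case, 6.56 ± 9.06 (SD, n = 5) in Ctrl and 2.84 ± 4.75 (SD, n = 6) in Dapa mice. The Case mean exceeded the Ctrl mean by 16.2 (2-sided exact permutation test, p = 0.165), and Dapa minus Case was -20.0 (2-sided exact permutation test, p = 0.0736). Neither passed the threshold. In the complete lists 3 Ctrl, 4 Case and 2 Dapa mice had a summit. Case 1 (69.6) and Case 5 (57.6) ranked highest there, followed by Ctrl 3 (48.7), Dapa 8 (44.6) and Ctrl 4 (40.8), above Case 4 (38.4) and Case 6 (34.8).

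Slc12a1 encodes NKCC2, the cotransporter that defines the thick limb. It had 1 region, in an intron 36.9 kb from the start (chr2:125189136-125189687), seen in Ctrl 3 (percentile 18.1), Case 5 (17.3) and Dapa 10 (60.3). It was thus carried by 1 mouse of each group, and its start had no summit even in the complete lists. Kcnj1 encodes the ROMK channel. Its shared region was centred at -58 bp from the start of the transcript Kcnj1-203, 12.7 kb into the gene (chr9:32384883-32385420), with a percentile of 25.6 in Ctrl 1 and 6.25 in Case 5. The complete lists held it in 5 libraries (2 Ctrl, 1 Case and 2 Dapa). Case 2 had a summit at 11.3 kb (percentile 16.2), found in no other library. At the outermost Kcnj1 start a summit was found only in 1 Ctrl library of the complete lists. Over the whole Kcnj1 window, the complete lists held a summit in 4 of 5 Ctrl mice and in 2 of 6 of each db/db group.

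Cldn10 encodes claudin-10, of which the form claudin-10b makes sodium-selective pores between thick limb cells, while the form claudin-10a makes anion pores in the proximal tubule. The forms have different first exons and starts, and claudin-10b has the inner one. Of the 10 genes it held the most summits, 84 over the 17 libraries, in 13 regions of which 9 were shared. The region 4.17 kb upstream (chr14:118783366-118784053) was found in every mouse but Case 3, with percentiles of 73.3 to 91.9 in Ctrl, 73.1 to 82.3 in the other Case mice and 27.6 to 85.6 in Dapa mice. The main start itself (median summit 62 bp upstream) had a summit in 2 Case and 2 Dapa mice and in no Ctrl mouse. In the complete lists 2 Ctrl mice had one too. The inner start, 66.8 kb into the gene (transcript Cldn10-203), had a summit in 1 Case mouse, so that nearly all Cldn10 summits lay nearer to the outer start than to that of the thick limb form. The highest Cldn10 summit ranked at 83.9 ± 7.0 (SD, n = 5) in Ctrl, 77.9 ± 7.38 (SD, n = 6) in Case and 77.6 ± 13.4 (SD, n = 6) in Dapa mice, and Case minus Ctrl was -5.99 (2-sided, exact permutation p = 0.212). The number of summits was 5.20 ± 1.10, 4.83 ± 1.47 and 4.83 ± 1.60 in these groups (SD).

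Further regions inside Cldn10 are named for how their presence differed between groups, and were chosen after their values had been seen. Intronic regions at 8.62 kb and 16.8 kb were found in 14 libraries each (all 5 Ctrl, 4 Case and 5 Dapa mice). The region at 5.68 kb (chr14:118793305-118793878) was found in all 5 Ctrl, 2 Case and 4 Dapa mice. Its sequence is given as 1 of the 2 regions present in every Ctrl mouse and in the fewest Case mice (chr14:118793435-118793734, plus strand), and it holds none of the motifs searched:
Cldn10 +5.68 kb: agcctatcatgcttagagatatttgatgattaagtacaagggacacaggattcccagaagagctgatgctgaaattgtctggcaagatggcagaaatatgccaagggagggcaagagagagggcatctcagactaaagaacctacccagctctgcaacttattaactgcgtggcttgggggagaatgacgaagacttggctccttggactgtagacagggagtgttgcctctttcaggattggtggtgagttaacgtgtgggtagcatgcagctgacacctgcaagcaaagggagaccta
The percentile there was 40.2, 90.6, 73.5, 53.6 and 73.9 in Ctrl 1 to 5. Of the Case mice, Case 1 had 65.3 and Case 5 had 12.3. Dapa 7 had 28.5, Dapa 8 had 0.853, Dapa 11 had 86.7 and Dapa 12 had 35.7. Every Ctrl mouse and 2 of 6 Case mice thus had a summit, but the test did not pass the threshold (Fisher's exact test, 2-sided, Case against Ctrl p = 0.0606).

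The region at 14.6 kb in Cldn10 (chr14:118801843-118802826) went the other way. It was found in 1 Ctrl, 5 Case and 1 Dapa mice, with percentiles of 5.31 in Ctrl 4, 21.2 in Case 1, 73.7 in Case 2, 30.9 in Case 3, 25.8 in Case 4, 34.3 in Case 6 and 23.3 in Dapa 8. The summits of Ctrl 4 (position 118802175) and Case 4 (118802188) lay before the window, from position 118802344, in which the repeat described below was measured. The merged region counts them with the others. Neither Case against Ctrl nor Dapa against Case passed the threshold (Fisher's exact test, 2-sided, p = 0.0801 for each). In the complete lists it was present in all 6 Case, 1 Ctrl and 3 Dapa mice (Fisher's exact test, 2-sided, Case against Ctrl p = 0.0152, adjusted p = 0.15). Of the 15509 regions tested that way in the complete lists, 0.284% were more often present in Case with an unadjusted p under 0.05. This region lies on a tandem repeat with a period of 19 bases, in which 96.4% of bases equal the base 19 positions on, as the first 57 bases of its window show (chr14, from position 118802344, plus strand, capitals mark the letters ACANNNTGT or the same letters running past the 57th base):
Cldn10 +14.6 kb, start of window: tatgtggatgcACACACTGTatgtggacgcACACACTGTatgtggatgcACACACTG
Of all consensus regions, 2.49% lay on a tandem repeat by the same measure (at least 80% of bases equal to the base at 1 fixed distance of 5 to 60 positions), and this was 1 of the 26 shared regions of these genes. The part of the repeat in this difference was not tested.

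Slc12a3 encodes NCC, the cotransporter that defines the distal convoluted tubule. Its main start had no summit in any equal-length list and 1 in the complete list of a Ctrl mouse. Instead, accessibility lay towards the end of the gene, in regions at 25.1 kb (chr8:94353797-94354629, in an exon of a non-coding transcript, with the median summit at -756 bp from the start of the transcript Slc12a3-203) and at 35.0 kb (chr8:94363149-94364565, intronic). Both were present in all 17 mice. The 25.1 kb window is shown because, of these 2 sites, its summits lay closer together (within 332 bp, against 916 bp at 35.0 kb), with the letters ATGCAAAT (POU octamer) and ACANNNTGT (core of the steroid receptor element) in capitals (chr8:94354141-94354440, plus strand):
Slc12a3 +25.1 kb: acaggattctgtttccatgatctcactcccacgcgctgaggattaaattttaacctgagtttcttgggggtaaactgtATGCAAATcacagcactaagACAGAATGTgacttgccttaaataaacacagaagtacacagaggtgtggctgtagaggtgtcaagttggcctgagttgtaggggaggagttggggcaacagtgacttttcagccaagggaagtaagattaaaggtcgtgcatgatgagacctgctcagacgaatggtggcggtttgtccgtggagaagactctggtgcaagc
At 25.1 kb the percentile was 57.5 to 73.1 in Ctrl (median 65.9), 45.2 to 92.6 in Case (median 70.1) and 23.0 to 93.2 in Dapa mice (median 75). At 35.0 kb it was 65.9 to 83.2 in Ctrl (median 70.7), 20.7 to 72.3 in Case (median 66.6) and 46.3 to 75.5 in Dapa mice (median 56.3). The ranges of the groups overlapped at both. The 75.5 at 35.0 kb came from a separate summit of Dapa 9 in that region, at position 94363399. Near the highest Ctrl summits, at position 94364217, Dapa 9 had 57.3. There, of the Dapa mice, only Dapa 7 (68.2) lay within the Ctrl range, which was not tested.

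The number of Slc12a3 summits was 2 in Ctrl 1 and 3 in each other Ctrl mouse. Case 1 to 6 had 4, 3, 6, 7, 2 and 4, and Dapa 7 to 12 had 2, 5, 5, 5, 3 and 3. Of the db/db mice, 7 of 12 lay above all Ctrl mice. The mean was 2.80 ± 0.447 (SD, n = 5) in Ctrl, 4.33 ± 1.86 (SD, n = 6) in Case and 3.83 ± 1.33 (SD, n = 6) in Dapa mice. The difference of 1.28 between all db/db and Ctrl mice did not pass the test (exact permutation test, 2-sided, p = 0.102). In the complete lists the means lay closer together, at 4.6 ± 1.14 (SD) for Ctrl, 5.33 ± 1.37 for Case and 4.83 ± 1.47 for Dapa. A region at 29.6 kb (chr8:94358426-94359202) was found in 3 Case and 3 Dapa mice and in no Ctrl mouse (Fisher's exact test, 2-sided, all db/db against Ctrl p = 0.102), but 3 Ctrl mice had a summit there in the complete lists.

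Wnk1 encodes the kinase at the head of the cascade that activates NCC. The distal convoluted tubule is known for a short kidney-specific form of this kinase made from a start inside the gene. The outer Wnk1 start carried, among regions found in at least 11 libraries, the one with the highest median rank in each group (chr6:120038486-120039077, median summit at -0.104 kb), present in all 17 mice. The 300 bases before this start (chr6:120038673-120038972, minus strand) hold 29 CpG and 1 match to GCCNNNGGC (AP-2), in capitals:
Wnk1 start: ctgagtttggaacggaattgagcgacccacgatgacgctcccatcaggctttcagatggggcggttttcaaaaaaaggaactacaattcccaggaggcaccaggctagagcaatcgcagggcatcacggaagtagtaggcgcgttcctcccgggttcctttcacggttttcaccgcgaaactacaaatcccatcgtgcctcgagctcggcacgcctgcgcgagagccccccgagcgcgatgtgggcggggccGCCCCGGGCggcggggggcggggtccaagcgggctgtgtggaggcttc
The percentile there was 84.3 to 96.3 in Ctrl (median 88.5), 80.3 to 97.1 in Case (median 93.6) and 68.3 to 95.3 in Dapa mice (median 91.9). Of the 16 annotated start clusters of Wnk1, this was the only one with a summit, in the equal-length and in the complete lists. Further summits lay around it, at -1.16 kb in 2 Case and 3 Dapa mice (and in 2 Ctrl mice of the complete lists) and at 1.5 kb in 1 Ctrl, 3 Case and 3 Dapa mice.

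The number of Wnk1 summits was 1 in Ctrl 1 to 4 and 2 in Ctrl 5. It was 2, 3, 3, 1, 3 and 1 in Case 1 to 6 and 3, 2, 1, 2, 2 and 2 in Dapa 7 to 12. The groups overlapped, with 4 of 12 db/db mice above all Ctrl mice. The means were 2.08 in db/db and 1.20 in Ctrl mice, a difference of 0.883 (exact permutation test, 2-sided, p = 0.0491, adjusted over all genes p = 0.804). This was the 1 of 8 tested members under an unadjusted p of 0.05 by number of summits in that comparison, where 6.04% of all genes were. With the complete lists the difference was 0.45 (exact permutation test, p = 0.327), and leaving out any 1 of Ctrl 1 to 4 raised p to 0.151.

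Pvalb encodes parvalbumin, a calcium-binding protein of the early distal convoluted tubule. It had a summit only in Dapa 7 (percentile 6.37), 8.04 kb into the gene. The complete lists added summits in other mice, 2 Ctrl, 1 Case and 3 Dapa in all. Trpm6 encodes the magnesium channel of the distal convoluted tubule. Its 3 start clusters had no summit, and its most frequent region lay 65.3 kb into the gene over a coding exon (chr19:18814979-18815755). The window is shown as the other region found in all Ctrl and few Case mice (chr19:18815158-18815457, plus strand), with 13 CpG and 1 match to GCCNNNGGC in capitals:
Trpm6 +65.3 kb: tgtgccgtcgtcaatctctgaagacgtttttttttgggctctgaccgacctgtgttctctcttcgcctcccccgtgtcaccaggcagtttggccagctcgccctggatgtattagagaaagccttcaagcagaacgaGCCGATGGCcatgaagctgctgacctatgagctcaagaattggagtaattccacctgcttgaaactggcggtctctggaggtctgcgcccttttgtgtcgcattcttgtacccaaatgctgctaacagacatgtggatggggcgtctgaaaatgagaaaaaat
It was found in all 5 Ctrl, 2 Case and 4 Dapa mice (Fisher's exact test, 2-sided, Case against Ctrl p = 0.0606, Dapa against Case p = 0.567). Its percentile in Ctrl 1 to 5 was 28.9, 56.2, 42.1, 55.5 and 27.9. It was 6.25 in Case 5 and 47.2 in Case 6. In Dapa 7, 9, 10 and 11 it was 53.1, 27.9, 32.3 and 37.7. The mice that had a summit overlapped in rank between groups, and the presence of a summit did not pass the test. A region at 141 kb was found in 1 Ctrl, 3 Case and 2 Dapa mice. The highest Trpm6 summit ranked at 43.3 ± 14 (SD, n = 5) in Ctrl, 28.2 ± 24.4 (SD, n = 6) in Case and 32.1 ± 26.6 (SD, n = 6) in Dapa mice (Case against Ctrl, exact permutation test, 2-sided, p = 0.262).

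**Figure D3:**
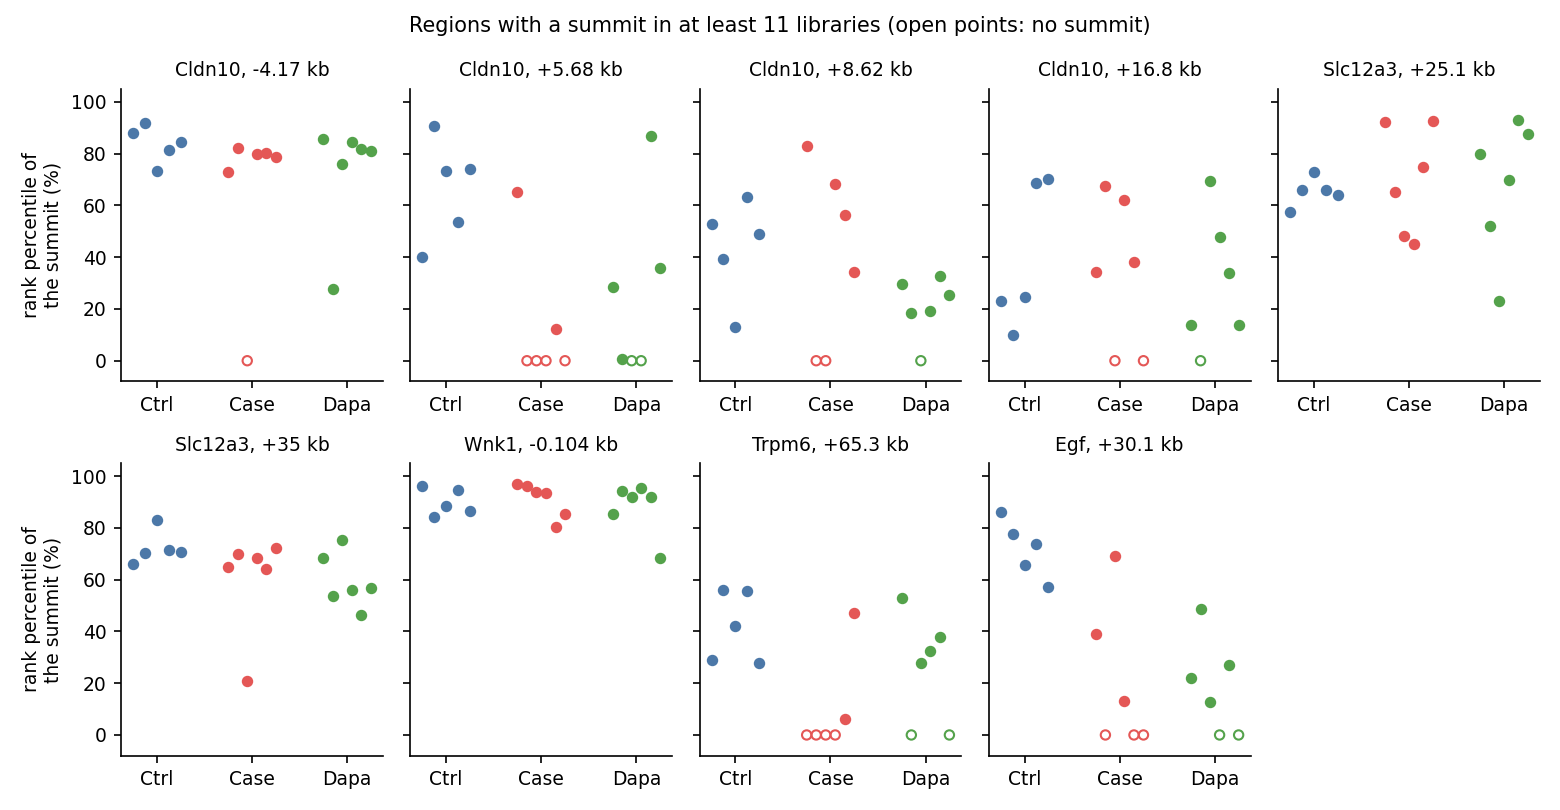
Rank percentile (vertical axis) of the summit in each library, by group, for the 9 regions found in at least 11 libraries, with distance from the gene start in each panel title. Filled points are libraries with a summit and open points at 0 those without. At 5.68 kb in Cldn10 and 65.3 kb in Trpm6 all 5 Ctrl and 2 of 6 Case libraries have a summit, and at the Wnk1 start all 17 do.

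Egf encodes the precursor of epidermal growth factor, which the thick limb and distal convoluted tubule release into urine and which stimulates TRPM6. Of the 8 genes tested it showed the largest difference in rank between groups. The highest Egf summit ranked at 86.2, 77.5, 65.5, 73.8 and 57 in Ctrl 1 to 5. It ranked at 39.0 in Case 1, 69.0 in Case 3, 13.2 in Case 4 and 16.0 in Case 6, and Case 2 and 5 had no summit. In Dapa 7 to 11 it ranked at 22.1, 48.8, 12.8, 19.4 and 27.2, and Dapa 12 had none. All Dapa mice and 5 of 6 Case mice lay below every Ctrl mouse, and Case 3 lay within the Ctrl range. In the complete lists Dapa 8 (68) and Case 3 (69.2) both lay above Ctrl 5 (65.8), the lowest Ctrl mouse. Case 5 had a summit there too (19.1).

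The mean percentile of Egf was 72.0 ± 11.2 (SD, n = 5) in Ctrl, 22.9 ± 26.7 (SD, n = 6) in Case and 21.7 ± 16.2 (SD, n = 6) in Dapa mice. Case minus Ctrl was -49.1 (2-sided exact permutation test, p = 0.0108, or 0.295 after adjustment over 17086 genes). Dapa was below Ctrl by a difference of -50.3 (exact permutation test, 2-sided, p = 0.00433, adjusted p = 0.263). All db/db mice together differed from Ctrl by -49.7 (exact permutation test, 2-sided, p = 0.000485, adjusted p = 0.0837), lower in 11 of 12 mice than every Ctrl mouse in the equal-length lists. These 3 comparisons share the Ctrl mice. Dapa and Case differed by -1.14 (exact permutation test, 2-sided, p = 0.933). None of these permutation tests passed the threshold after adjustment. For the 3 comparisons with Ctrl, the unadjusted p was under 0.05 under every alternative tried, and limma, a linear model across all genes, gave an adjusted p of 0.129 for Case, 0.0413 for Dapa and 0.0202 for all db/db mice against Ctrl.

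Most Egf summits lay at an inner start and few at the outer one. The outer start (transcript Egf-201) had a summit in Ctrl 1 and Dapa 10, and the only summit of Case 6 lay 61 kb into the gene. The inner start (transcript Egf-202, protein-coding, 30.2 kb into the gene) had a region (chr3:129724815-129725663) in all 5 Ctrl, 3 Case and 4 Dapa mice, and presence did not pass the test (Fisher's exact test, 2-sided, all db/db against Ctrl p = 0.245). Summit positions within this region fell into 2 places. In Ctrl 1 to 5 the summit lay at -309, -317, -316, -319 and -322 bp from the inner start, upstream of it. In Case 1, 3 and 4 it lay at -23, 2 and -15 bp, and in Dapa 7, 8 and 9 at 22, 3 and -25 bp. Dapa 11 alone among db/db mice had it with the Ctrl mice, at -326 bp. The complete lists added Case 5, at -15 bp. The Ctrl and db/db medians were 302 bp apart. Of 14305 regions with a summit in all Ctrl and at least 7 db/db mice, 2.84% had medians at least 200 bp apart. Both limits were chosen after the Egf positions had been seen, so the position is described without a test.

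The sequence between these places is shown because the summits of the groups lie at its opposite ends (chr3:129725105-129725404, minus strand, so that Ctrl summits fell at its 5′ end and most db/db summits at or just past its 3′ end). It holds 19 CpG and none of the motifs in the list that was searched in all regions. Capitals mark TGACGTCA (cAMP response element) at bases 129725361 to 129725368 and GCATGCGC (core of the NRF1 element, read on both strands) at bases 129725156 to 129725165:
Egf inner start: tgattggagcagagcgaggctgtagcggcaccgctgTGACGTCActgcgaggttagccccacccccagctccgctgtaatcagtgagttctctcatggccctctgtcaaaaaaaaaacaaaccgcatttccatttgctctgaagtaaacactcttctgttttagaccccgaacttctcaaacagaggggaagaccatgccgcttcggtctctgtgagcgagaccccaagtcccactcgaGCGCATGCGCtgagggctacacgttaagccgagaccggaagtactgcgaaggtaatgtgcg
These 2 motifs were searched after the sequence had been read. Windows of the same length in 1.11% and 1.72% of all consensus regions held them.

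**Figure D4:**
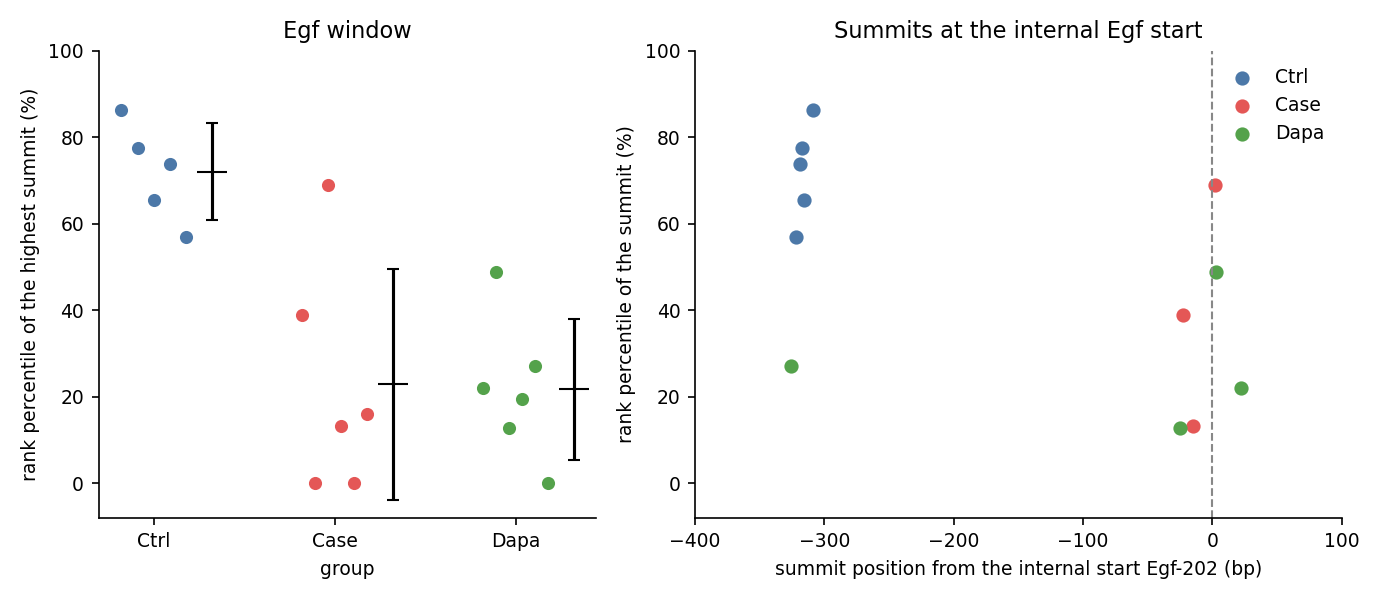
Left, rank percentile of the highest Egf summit in each library by group, with mean and SD beside the points (n = 5, 6 and 6). Right, for the 12 libraries with a summit at the inner Egf start, the position of the summit relative to that start (bp) and its rank percentile. The 5 Ctrl summits lie near -309 to -322 bp, and 6 of the 7 db/db summits lie between -25 and 22 bp.

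Over the genes, the comparisons were as follows. Of the 8 members with a summit in at least 2 libraries, the rank percentile had an unadjusted p under 0.05 for 1 in Case against Ctrl, 0 in Dapa against Case, 1 in Dapa against Ctrl and 1 in all db/db against Ctrl, Egf each time. Over all 17086 genes tested the shares were 11.8%, 3.64%, 12.5% and 12.9%. By number of summits the members' counts were 0, 0, 0 and 1, beside 4.51%, 0.761%, 3.78% and 6.04% of all genes. By rank percentile the members' share was close to that of all genes. No gene passed an adjusted p of 0.05 by the exact permutation test with Benjamini-Hochberg adjustment, while limma called 76, 0, 64 and 168 genes by rank percentile and 56, 2, 35 and 106 by number of summits in these 4 comparisons. Egf was the only member among them, by rank percentile in the last 2. The median difference in percentile over the members was -1.06 for Case against Ctrl, -1.66 for Dapa against Case and -4.42 for Dapa against Ctrl, beside medians of -0.699, 0.0377 and -0.419 over all genes tested.

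Presence of single regions gave no call after adjustment under any alternative tried. Of the members' regions, 7 could reach an unadjusted p of 0.05 in Case against Ctrl, 10 in Dapa against Case, 3 in Dapa against Ctrl and 18 in all db/db against Ctrl, and 0 did in either direction (Fisher's exact test, 2-sided). This count depended on the setting, and the share of all tested regions with such a p, in either direction, is given beside each count. In all db/db against Ctrl it was 3 of 13 member regions with scores of at least 5 (12.3% of all regions), 2 of 6 in lists of 14851 summits (8.43%) and 1 of 21 with summits widened by 100 bp (8.77%). In Case against Ctrl it was 1 of 15 in complete lists (10.1%), 1 of 4 in lists of 14851 summits (8.54%) and 1 of 8 with summits widened by 100 bp (9.36%). It was 3 of 5 without Case 5 (19.3%), and at most 1 without any other mouse. In Dapa against Case, leaving out Case 5 or Dapa 8 gave 1 of 12 (2.46% and 1.87%), and Dapa against Ctrl had 1 of 2 in lists of 14851 summits (7.15%) and 1 of 4 with summits widened by 100 bp (7.33%). Over all regions tested, presence in Case was higher with such a p in 0.868% and lower in 9.32% of regions, compared with Ctrl. For Dapa against Case these shares were 0.941% and 0.235%, for Dapa against Ctrl 1.23% and 6.68%, and for all db/db against Ctrl 1.22% and 8.06%. No region of the genome passed after adjustment.

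Summits over the 10 windows together numbered 11 to 15 in Ctrl, 11 to 17 in Case and 11 to 16 in Dapa mice. The means were 12.6 ± 1.82 (SD, n = 5), 14 ± 2 (SD, n = 6) and 13.2 ± 2.14 (SD, n = 6), and the groups overlapped. The sign of the difference depended on which summits were used. Case minus Ctrl was 1.4 in equal-length lists, -3.13 in complete lists, -1.37 in lists of 14851 summits and -3.23 with scores of at least 5.

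The other genes of the same segments were followed in 4 lists of 32 genes in all, of which 30 had a summit in at least 2 libraries. In Case against Ctrl, 2 of the 30 had a higher and 2 a lower rank percentile with an unadjusted p under 0.05. The counts were 0 and 0 in Dapa against Case, 2 and 2 in Dapa against Ctrl, and 1 and 2 in all db/db against Ctrl, and none passed after adjustment. These shares lie beside 11.8%, 3.64%, 12.5% and 12.9% of all genes, so that 4 of 30 in Case against Ctrl is close to the share of all genes. By direction, 675 of all 17086 genes were higher and 1344 lower in Case against Ctrl, 808 and 1327 in Dapa against Ctrl, and 766 and 1439 in all db/db against Ctrl. By number of summits, 1 was higher and 1 lower in Case against Ctrl, 1 higher in Dapa against Ctrl, 1 lower in all db/db against Ctrl and none in Dapa against Case. Over all 17086 genes, 160 were higher and 610 lower by this measure in Case against Ctrl (4.51% together). The all-gene counts were 184 and 461 in Dapa against Ctrl (3.78%) and 207 and 825 in all db/db against Ctrl (6.04%). In Dapa against Case they were 76 and 54 (0.761%). Of the transcription factor genes in these lists, Tfap2b and Irx1 had no summit in any equal-length list.

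Of the 8 calcium and magnesium handling genes, Slc8a1, the sodium-calcium exchanger NCX1 of the distal tubule, ranked lower in db/db mice. It was 70.5 ± 8.27 (SD, n = 5) in Ctrl, 26.6 ± 28.6 (SD, n = 6) in Case and 22.9 ± 20.5 (SD, n = 6) in Dapa mice, and 11 of 12 db/db mice lay below every Ctrl mouse (exact permutation test, 2-sided, all db/db against Ctrl p = 0.00129, adjusted p = 0.125). Of the 10 regulator genes, Ptger3, a prostaglandin E2 receptor that lowers salt transport in the thick limb, ranked at 52.8 ± 11.8 (SD, n = 5) in Ctrl, 11.0 ± 20 (SD, n = 6) in Case and 12.9 ± 16.1 (SD, n = 6) in Dapa mice. Again 11 of 12 db/db mice lay below every Ctrl mouse (exact permutation test, 2-sided, p = 0.000646, adjusted p = 0.0905). Ppp1r1a, a phosphatase inhibitor, had no summit in Ctrl mice, ranked at 11.5 ± 24.4 (SD, n = 6) in Case mice, 2 of which had one, and at 30.7 ± 19.5 (SD, n = 6) in Dapa mice, 5 of which had one (exact permutation test, 2-sided, Dapa against Ctrl p = 0.0281, adjusted p = 0.327).

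Of the 8 salt transport partners, 2 ranked higher in Case than in Ctrl mice with an unadjusted p under 0.05 (beside 675 of 17086 genes), and 1 did when all db/db mice were compared with Ctrl (beside 766). Bsnd, the barttin subunit of the distal chloride channels, had no summit in Ctrl mice and one in 5 of 6 Case mice, at 18.7 ± 15.4 (SD, n = 6). In the Dapa group 1 mouse had one. Case against Ctrl gave p = 0.0281 and an adjusted p of 0.339 (exact permutation test, 2-sided). In the WNK pathway list of 6 genes, 5 had a summit in all libraries. Klhl3, which marks WNK kinases for degradation, ranked at 78.1 ± 4.98 (SD, n = 5) in Ctrl, 82.8 ± 8.31 (SD, n = 6) in Case and 85.4 ± 4.55 (SD, n = 6) in Dapa mice (Dapa against Ctrl, exact permutation test, 2-sided, p = 0.0303, adjusted p = 0.34). Of the 10 housekeeping genes, 2 ranked higher and 1 lower in Case than in Ctrl mice with an unadjusted p under 0.05. Their median difference was 3, and 675 of all 17086 genes were higher and 1344 lower. In all db/db against Ctrl, 1 was higher and 2 lower (median difference 1.42), beside 766 and 1439 of all genes. Hprt was lower in both. The housekeeping gene Hprt ranked at 75.5 ± 8.66 (SD, n = 5) in Ctrl, 6.96 ± 17.1 (SD, n = 6) in Case and 32.5 ± 27.6 (SD, n = 6) in Dapa mice, below every Ctrl mouse in all 12 (exact permutation test, 2-sided, p = 0.000162, the smallest possible, adjusted p = 0.0727).

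**Figure D5:**
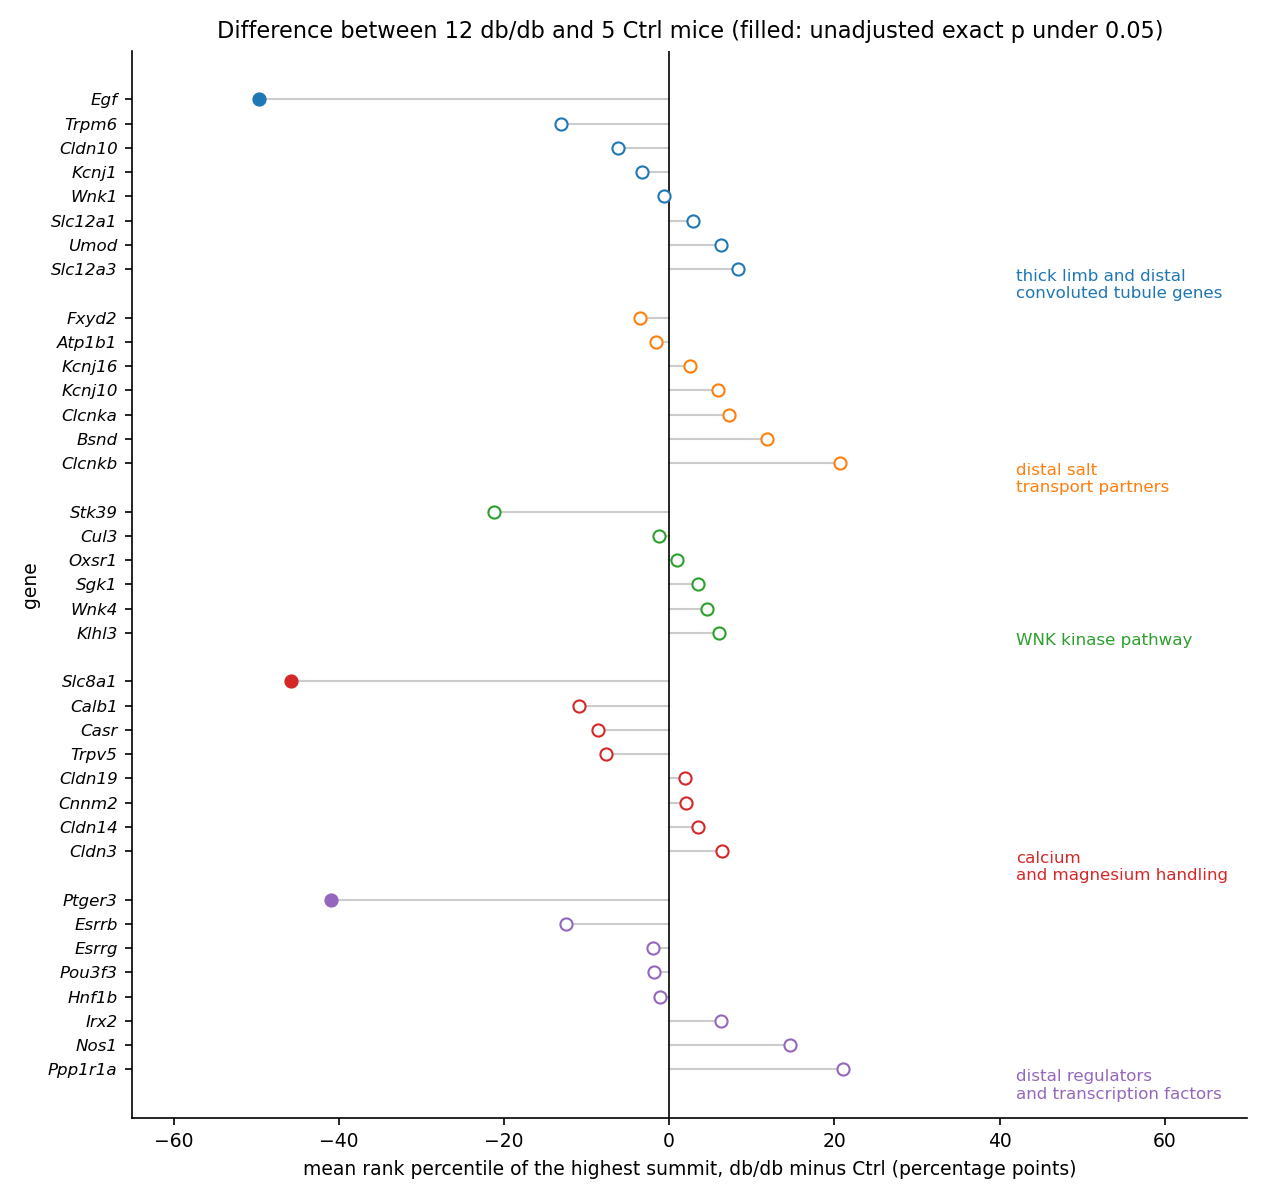
Difference in the mean rank percentile of the highest summit between the 12 db/db and the 5 Ctrl mice (horizontal axis, percentage points) for the 8 tested members and the tested genes of the 4 other lists except 1 that is not shown, with filled points for an unadjusted exact p under 0.05. Egf at -49.7, Slc8a1 at -45.8 and Ptger3 at -40.9 lie far to the left, and most other genes lie near 0.

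The windows of 300 bases around the 26 shared regions were searched on both strands for 6 motifs, of which ACANNNTGT, GCCNNNGGC and TGANTCA read the same on both. TTAATNATT (HNF1 core) and TCAAGGTCA (estrogen-related receptor) had no match in any of them, beside 3.86% and 0.581% of all 52351 consensus regions searched. ATGCAAAT was found in 1 (1.25% of all), GCCNNNGGC in 3 (15.1%), TGANTCA (AP-1) in 3 (9.19%) and ACANNNTGT in 6 (7.74%), 1 of which was the Cldn10 repeat with 15 matches. Matches are counts of letters and not of bound sites. In the RefSeq promoter sequences of the same build (250 bases before to 50 after a start), which were found for all 10 genes, the outer Umod start held 0 CpG, that of Kcnj1 2, Slc12a3 4, Slc12a1 5, Cldn16 5 and Trpm6 9, against a median of 15 over 16522 protein-coding genes (the richest start of each). The Wnk1 start held 32. At their 2 starts Egf had 0 and 17, Cldn10 4 and 27, and Pvalb 5 and 25.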

How the data were processed

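Per the labels and the study's methods, kidney cells of each mouse were transposed. The peaks are those that the authors called with MACS2 in each library, from reads placed on mm10 by Bowtie2 in the ENCODE pipeline. Read positions had been moved by +4 or -5 bp depending on the strand, and blacklisted regions and duplicates left out. The deposited scores of the summits are −log10 values from MACS2, whether of a p-value or of a q-value is not given in the sources used here. Scores depend on depth, so they were used only to rank summits within a list (ties share their mean rank). Genes and starts came from GENCODE M21. Chromosomes 1 to 19, X and Y entered. Regions were tested by Fisher's exact test and gene values by exact permutation of the difference in means, 2-sided, with Benjamini-Hochberg adjustment over all regions or genes (python 3.11.15, scipy 1.17.1; limma 3.58.1 in R 4.3.3), after tests on simulated data. P-values measure spread between mice. The rule was to name all members, their start regions, the most frequent region of each and regions or other distal genes with an unadjusted p under 0.05. Some further regions, among them those of Cldn10, Slc12a3, Wnk1 and Trpm6, and the housekeeping gene Hprt fall outside it. These were named with their values known. The members and lists were chosen with earlier results of these data known. Alternatives were complete and half-length lists, scores of at least 5, other windows, summits widened by 100 or 500 bp, a minimum of 3 libraries for a region, tests of every consensus region, summits merged within 500 bp, limma, a replicate block and each mouse left out. Reference sequence was GRCm38.p6. Values of some genes of the comparison lists, including 1 that this rule names, are not reported here.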

Additional observations from a re-analysis of the deposited data

Results flagged for a closer look

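Within each group, the highest and lowest mouse were compared with the others by Dixon's ratio (gap to the nearest mouse over the whole range) for the total of summits over the 10 windows and for each gene with a summit in every mouse of the group. Of 14 such groups of values, 3 held a mouse that stood apart at the 95% level, where chance gives about 1 in 20. For Cldn10, Case 3 had a highest percentile of 63.2, below the 78.8 to 83.1 of the other Case mice. It was also the only mouse without the region 4.17 kb upstream. For the same gene, Dapa 8 had 51.4, below the 76.1 to 86.7 of the other Dapa mice. For Wnk1, Dapa 12 had 68.3, below the 85.4 to 95.3 of the other Dapa mice.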

How the results depend on the processing

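No member passed an adjusted p of 0.05 by number of summits, and no member region did by presence, under any alternative tried. By rank percentile 1 member, Egf, passed with limma in Dapa against Ctrl (adjusted p = 0.0413) and in all db/db against Ctrl (0.0202), and with scores of at least 5 in all db/db against Ctrl (exact permutation test, adjusted p = 0.0311), where 156 of 15404 genes passed. Leaving out each mouse in turn gave 0 such calls for every count. The Egf difference ran from -58.4 to -44.6 for Case, -55.7 to -45.9 for Dapa and -53.9 to -46.1 for all db/db against Ctrl when each mouse was left out. The difference in summits over the 10 windows changed sign with the summits used. Dapa minus Ctrl was 0.567 in equal-length lists, -4.3 in complete lists, -1.87 in lists of 14851 summits and -3.73 with scores of at least 5. Case minus Ctrl was -3.13, -1.37 and -3.23, and all db/db minus Ctrl -3.72, -1.62 and -3.48, under the same 3 alternatives. The cause was not tested. Leaving out each mouse in turn gave 0.8 (without Case 4) to 2 for Case minus Ctrl, -1.43 (without Case 2) to -0.233 (without Case 4) for Dapa minus Case, 0 (without Dapa 10) to 1.17 (without Ctrl 3) for Dapa minus Ctrl and 0.583 (without Ctrl 2 or Ctrl 5) to 1.58 (without Ctrl 3) for all db/db minus Ctrl. The Wnk1 difference in number of summits lost its unadjusted p under 0.05 in 16 of 24 alternatives. Same-numbered Ctrl and Case mice did not deviate together (0 of 5 pairs with a correlation above 0.1). With 5 pairs this cannot exclude a link between same-numbered mice. The labels give none, and the numbers are used here as names only. With the replicate block the mean paired difference in summits was 1.6 ± 1.95 (SD, 5 pairs), the Egf difference was -47.7 (limma, adjusted p = 0.364) and no member was called. Sequencing depth is unknown and limits all of these values.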
